A study of Mus musculus with 8 samples.

Results

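The genes described here are the bile acid receptor FXR, its partner repressor SHP, and the hepatocyte membrane transporters that carry bile acids and bile lipids. They were taken by symbol from the deposited expression table: the receptor genes *Nr1h4* (FXR) and *Nr0b2* (SHP), the canalicular exporters *Abcb11*, *Abcb4* and *Abcc2*, the basolateral exporters *Abcc3*, *Abcc4* and *Slc51b*, and the basolateral uptake carriers *Slc10a1* and *Slco1b2*. All 10 were found among the 55416 gene identifiers of the table, and all 10 were among the 12710 genes that reached a TPM of 1 (an abundance scaled by transcript length and within a library) in 4 or more of the 8 libraries, the level required for testing. Gene expression was measured by RNA sequencing of mouse liver, in 4 floxed control libraries (genotype Alb-cre-) and 4 hepatocyte knockout libraries (genotype Alb-cre+), in which Cre driven by the albumin promoter removes *Smpd3*, the gene of neutral sphingomyelinase 2, from hepatocytes. Both groups were fed HFMCD for 9 weeks, a diet that the submitters used to produce steatohepatitis. The diet was thus shared by all libraries. As the controls had no Cre, an effect of Cre itself and one of the deletion cannot be told apart. The labels do not state strain, sex, age or hour of collection. They do not tie libraries to single animals either, so p-values reflect the spread between libraries, which may be technical.

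FXR is a nuclear receptor that binds bile acids and, with its partner RXR, switches on genes that export them from the hepatocyte. SHP is a receptor-like protein without a DNA-binding domain. It is made in response to FXR and represses the genes of bile acid synthesis. Bile acids enter the hepatocyte from the blood by NTCP (*Slc10a1*) and the organic anion carrier OATP1B2 (*Slco1b2*). They leave it into the bile canaliculus by BSEP (*Abcb11*), while MDR2 (*Abcb4*) moves phosphatidylcholine and MRP2 (*Abcc2*) moves bilirubin glucuronides and other conjugates. MRP3 (*Abcc3*), MRP4 (*Abcc4*) and the OST carrier, whose beta subunit is *Slc51b*, return bile acids to the blood, and these are known to be raised in cholestasis.

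The promoter windows of 4 members are shown because *Nr0b2*, *Abcb11* and *Slc51b* had the largest differences between the genotypes and *Slco1b2* held a sequence as close to the FXR binding motif as *Abcb11* did. The motif searched was the inverted repeat with 1 spacer base (IR-1), that is the half-site AGGTCA, 1 base of any kind, then TGACCT. It reads the same on both strands. The best match in each window, with up to 4 of its 12 fixed bases mismatched, is in capitals, and each window runs 5′ to 3′ on the gene's strand from 250 bases before to 50 bases after the RefSeq start (build GRCm38.p6). *Abcb11* lies at chr2:69342567-69342866 (minus strand), *Slco1b2* at chr6:141629268-141629567 (plus), *Slc51b* at chr9:65422724-65423023 (minus) and *Nr0b2* at chr4:133553126-133553425 (plus).
Abcb11: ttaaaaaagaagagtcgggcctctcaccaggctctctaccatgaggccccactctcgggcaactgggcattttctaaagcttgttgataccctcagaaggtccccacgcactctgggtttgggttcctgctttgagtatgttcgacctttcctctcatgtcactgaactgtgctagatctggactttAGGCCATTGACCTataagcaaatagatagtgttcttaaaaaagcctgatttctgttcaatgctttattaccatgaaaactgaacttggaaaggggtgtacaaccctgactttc
Slco1b2: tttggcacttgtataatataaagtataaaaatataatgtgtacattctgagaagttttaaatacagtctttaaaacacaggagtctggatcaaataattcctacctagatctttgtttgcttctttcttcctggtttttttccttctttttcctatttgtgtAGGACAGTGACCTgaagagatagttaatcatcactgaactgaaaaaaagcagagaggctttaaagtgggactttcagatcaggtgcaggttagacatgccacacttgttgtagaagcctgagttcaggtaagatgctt
Slc51b: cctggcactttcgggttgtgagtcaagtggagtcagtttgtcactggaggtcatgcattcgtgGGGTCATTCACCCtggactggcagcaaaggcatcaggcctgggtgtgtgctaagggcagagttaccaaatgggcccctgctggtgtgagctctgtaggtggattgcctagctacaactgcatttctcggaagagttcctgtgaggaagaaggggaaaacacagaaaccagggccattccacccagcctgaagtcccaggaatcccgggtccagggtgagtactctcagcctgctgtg
Nr0b2: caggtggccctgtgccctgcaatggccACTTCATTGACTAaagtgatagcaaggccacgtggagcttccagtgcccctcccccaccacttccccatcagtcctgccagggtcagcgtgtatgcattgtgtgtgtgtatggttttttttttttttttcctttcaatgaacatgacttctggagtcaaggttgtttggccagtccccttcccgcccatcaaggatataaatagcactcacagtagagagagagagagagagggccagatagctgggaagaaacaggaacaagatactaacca

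The *Abcb11* window held a match with 1 mismatch from position -63 to -51 relative to the start, and the *Slco1b2* window held one with 1 mismatch from -88 to -76. Of all 32851 RefSeq windows of this length, 27 (0.0822%) held a match with at most 1 mismatch. The best match in the *Slc51b* window, from -187 to -175, had 3 mismatches, as did the best match in each of 2 windows of *Slc10a1*, where 11.4% of all windows had a match that close. The best match of *Nr0b2* had 4 mismatches, as had those of *Nr1h4*, *Abcb4*, *Abcc2* and the better of 2 windows of *Abcc4*, and 56.4% of all windows reached that. Windows were found for 9 of the 10 members, all but *Abcc3*. A match is a likeness of letters, and no binding was measured. Only these windows were searched. A closer match further from the start of *Nr0b2*, or of any other member, would have been missed.

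The targeted gene was looked at first. *Smpd3* measured 8.69, 10.72, 12.54 and 6.38 TPM in floxed controls 1 to 4 and 1.17, 3.03, 1.27 and 2.06 TPM in knockouts 1 to 4, so each library went with its label (-1.89 ± 0.24 SE on the log2 scale, limma adjusted p = 0.0300; 2-sided exact permutation p = 0.0286, the smallest that 70 assignments can give). That call was lost without floxed control 1 or 2 or knockout 1, 3 or 4 (largest adjusted p = 0.0874, limma). Hepatocyte markers were high in every library, with 9 of 9 matched markers tested and a summed level of 76761 to 90051 TPM in control livers and 69221 to 77957 TPM in the knockouts. None of the 9 passed, with 3 log2 fold changes above 0 and 6 below. The groups did not overlap in *Serpinc1*, higher, and in *Apoa1* and *Ahsg*, lower (3.29% and 1.46% of all tested genes as higher and lower). Floxed control 4 stood apart, where 12115 genes reached 1 TPM while the other 7 libraries had 12474 to 12890, and with the lowest summed level of endothelial markers, 52.3 TPM, against 118 to 146 TPM in the other controls. Its summed Kupffer (300 TPM), stellate (264 TPM) and lymphoid (9.66 TPM) markers were also the lowest of the 8 libraries. Its hepatocyte sum, 90051 TPM, was the highest. In the marker lists of bile duct, endothelial, Kupffer, stellate and lymphoid cells no gene passed. The Kupffer cell marker *Marco* lay at 16.71 to 20.05 TPM in controls and 8.11 to 11.98 TPM in knockouts (log2 fold change -0.84 ± 0.13 SE, adjusted p = 0.0609, and 0.0466 to 0.209 over the alternatives, limma). *Timd4*, of the same list, lay at 0.51 to 0.89 and 0.30 to 0.37 TPM, below the level tested, also without overlap. Of the 7 tested genes of that list, 3 had a log2 fold change above 0 and 4 below. The summed level of the list overlapped, at 300 to 644 TPM in controls and 346 to 578 TPM in knockouts. All 8 endothelial markers had a lower mean in the knockouts (summed level 69.2 to 94.0 TPM). The part of these differences in the results below was not tested. In bulk liver, fewer cells of a type and less RNA per cell cannot be told apart.

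Among the 10 genes, *Nr0b2*, *Abcb11* and *Slc51b* had higher values in the knockout livers, *Slc10a1* had a lower mean, and FXR itself differed in mean by less than its spread. None of the 10 passed the threshold of an adjusted p of 0.05 over all tested genes in limma, where 13 of 12710 genes (0.102%) passed, 6 higher (0.0472%) and 7 lower (0.0551%), or 3 higher and 7 lower after median-of-ratios scaling. At an unadjusted p under 0.05, 3 of the 10 passed, all higher, against 8.02% of all tested genes, 5.57% as higher and 2.45% as lower. In 2 of the 10 the groups did not overlap, both higher in the knockout, against 4.74% of all tested genes, 3.29% as higher. The median log2 fold change of the 10 genes was 0.11, beside 0.05 for all tested genes, with 6 above and 4 below 0. The median of the 10 was 0.21 without floxed control 2, 0.17 without knockout 1, 0.06 without knockout 3, and 0.05 with either median-of-ratios scaling or quantile normalization. Of all tested genes 64.6% lay above 0. Fold changes here and below are knockout minus control on the scale of log2(TPM + 1), where differences of low-TPM genes come out too small.

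**Figure D1:**
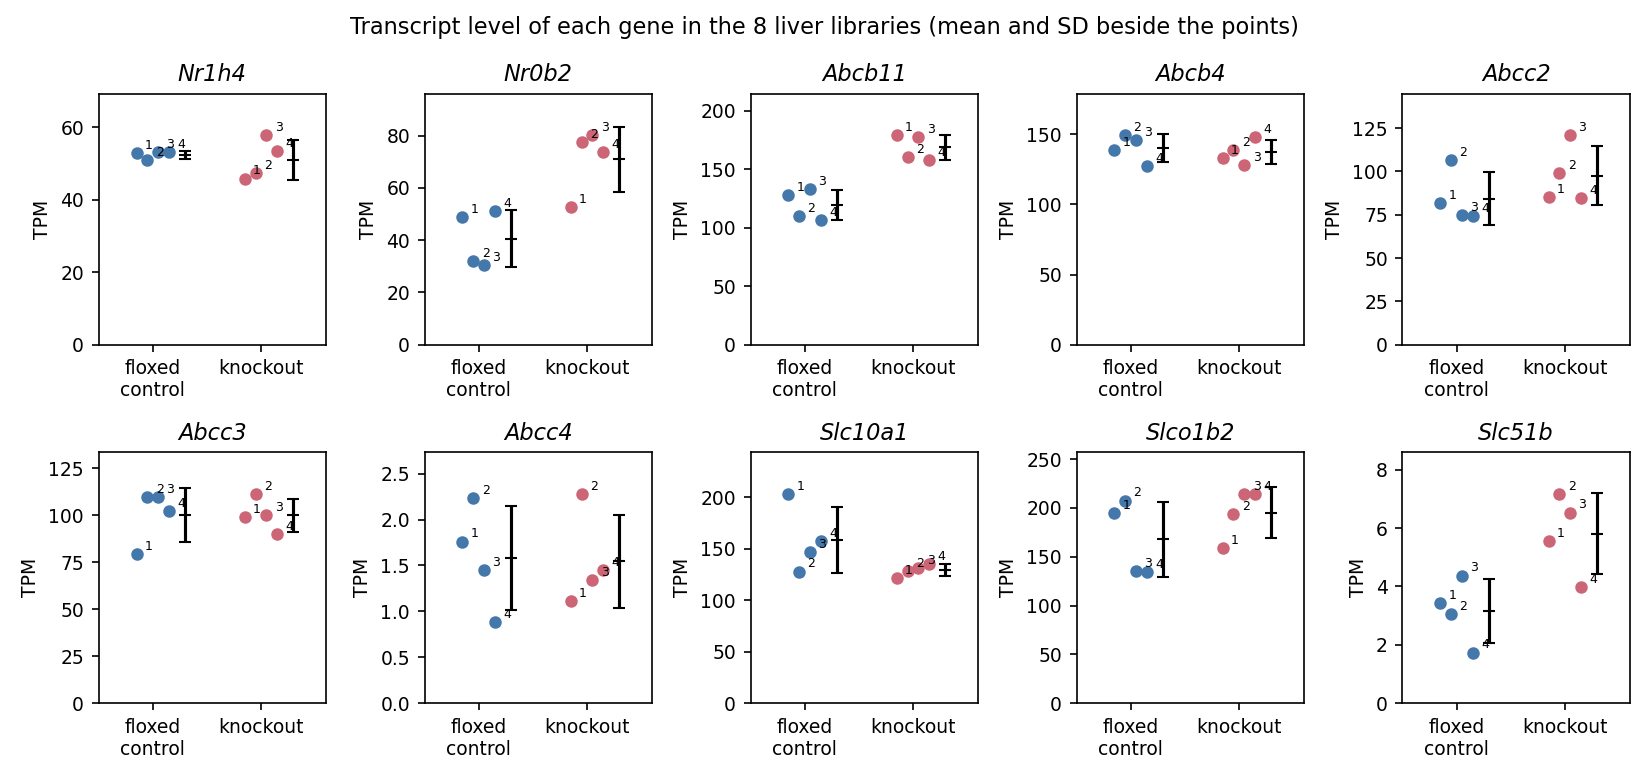
Level in TPM (vertical axis, from 0) of each of the 10 genes in the 4 floxed control (blue) and 4 knockout (red) libraries, numbered by replicate, with the group mean and SD as a black bar. The groups are apart in Abcb11 (106.78 to 133.07 against 157.72 to 179.02 TPM) and narrowly apart in Nr0b2 (30.55 to 51.09 against 52.70 to 80.13 TPM), and overlap in the other panels.

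FXR and SHP, the receptor and the repressor, differed in how they compared between the genotypes. *Nr1h4* (ENSMUSG00000047638) measured 52.92, 50.88, 53.18 and 53.10 TPM in floxed controls 1 to 4 and 45.89, 47.39, 57.82 and 53.46 TPM in knockouts 1 to 4. The controls lay close together, with a coefficient of variation of 2.09%, and the knockouts lay on both sides of them, 2 below all controls and 2 above. Its mean was 52.5 ± 1.10 TPM in control livers and 51.1 ± 5.53 TPM in the knockouts (SD, n = 4 each), 97.4% of the controls, with a log2 fold change of -0.04 ± 0.09 (SE; adjusted p = 0.966, limma). Without knockout 1 the sign turned, to a log2 fold change of 0.0056.

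*Nr0b2* (ENSMUSG00000037583), the gene of SHP, measured 48.80, 32.06, 30.55 and 51.09 TPM in floxed controls 1 to 4 and 52.70, 77.55, 80.13 and 73.64 TPM in knockouts 1 to 4. All knockouts lay above all controls, but knockout 1 lay next to controls 1 and 4 and far from the other knockouts. Controls averaged 40.6 ± 10.8 TPM and knockouts 71.0 ± 12.5 TPM (SD, n = 4 each), 175% of the controls. The log2 fold change was 0.81 ± 0.19 (SE; unadjusted p = 0.00167, rank 103 of 12710), and it did not pass (adjusted p = 0.206, limma). Over the 18 alternative settings its log2 fold change ran from 0.69 to 0.97 and its adjusted p from 0.0658 to 0.494 in limma. Set against FXR in the same library, a measure that does not depend on the scaling of a library, SHP transcript was 0.77 ± 0.20 times the level of *Nr1h4* in the controls and 1.39 ± 0.20 times in the knockouts (SD, n = 4 each). The ratio ran from 0.57 to 0.96 in the controls and from 1.15 to 1.64 in the knockouts. This ratio, and those below, were chosen after the values were seen and are given without a test.

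Of the 3 canalicular exporters, the bile acid pump differed most. *Abcb11* (ENSMUSG00000027048), the gene of BSEP, measured 127.67, 109.64, 133.07 and 106.78 TPM in floxed controls 1 to 4 and 179.02, 160.66, 177.26 and 157.72 TPM in knockouts 1 to 4. The groups were separated by a gap wider than the SD of either, and no single library set the difference. Controls averaged 119 ± 13.04 TPM and knockouts 169 ± 11.03 TPM (SD, n = 4 each), 141% of the controls. With a log2 fold change of 0.50 ± 0.09 (SE; unadjusted p = 0.000285, rank 35 of 12710) it had the smallest p of the 10 genes, and it did not pass over all genes (adjusted p = 0.104, limma). Its log2 fold change stayed between 0.43 and 0.55 and its adjusted p between 0.0876 and 0.266 (limma) over the alternatives.

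The other canalicular exporters did not separate. *Abcb4* (ENSMUSG00000042476), the phosphatidylcholine floppase that protects bile ducts from free bile acids, measured 138.69, 149.29, 145.69 and 127.39 TPM in floxed controls 1 to 4 and 133.37, 138.58, 128.20 and 148.35 TPM in knockouts 1 to 4. Every knockout value lay within the control range, and the log2 fold change was -0.03 ± 0.08 (SE; adjusted p = 0.975, limma). *Abcc2* (ENSMUSG00000025194), the conjugate exporter MRP2, measured 81.77, 106.48, 74.90 and 74.32 TPM in floxed controls 1 to 4 and 85.43, 99.27, 120.84 and 84.82 TPM in knockouts 1 to 4. Only knockout 3 exceeded the highest control, and the log2 fold change of 0.21 ± 0.14 (SE; adjusted p = 0.813, limma) was 0.32 without floxed control 2 and 0.10 without knockout 3.

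Within each library, *Abcb11* and *Abcb4* stood in a different order in the 2 genotypes. The ratio of the bile acid pump to the phospholipid floppase was 0.92, 0.73, 0.91 and 0.84 in floxed controls 1 to 4, and 1.34, 1.16, 1.38 and 1.06 in knockouts 1 to 4. *Abcb4* thus had the higher TPM in every control and *Abcb11* in every knockout. TPM is scaled to transcript length, but other differences between genes in how their reads are counted may remain. The side of 1 on which a ratio falls is therefore less certain than its difference between the genotypes.

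**Figure D2:**
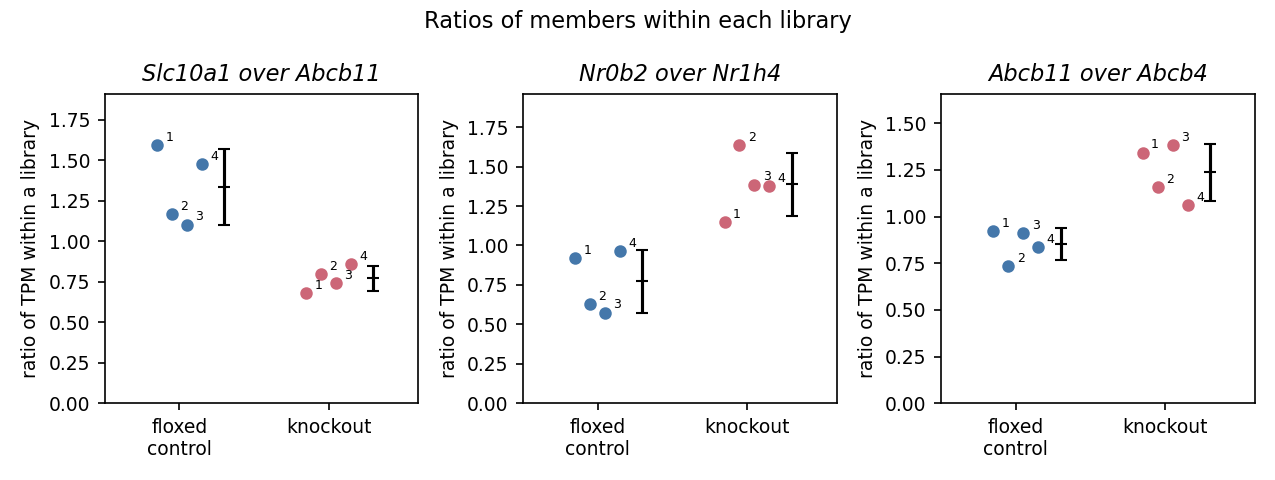
Ratio of TPM between a pair of members within a library (vertical axis, from 0) in the 4 floxed control (blue) and 4 knockout (red) libraries, with mean and SD in black. The ratio of Slc10a1 to Abcb11 lies above 1 in every control and below 1 in every knockout, and the ratio of Abcb11 to Abcb4 does the reverse.

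The carriers that bring bile acids in from the blood had means on opposite sides, 1 lower and 1 higher, both with overlap. *Slc10a1* (ENSMUSG00000021135), the sodium-dependent bile acid carrier NTCP, measured 203.36, 127.85, 146.75 and 157.43 TPM in floxed controls 1 to 4 and 121.73, 128.29, 131.40 and 135.51 TPM in knockouts 1 to 4. The knockouts lay close together near the lowest control, control 2, with knockout 1 below all controls and the other 3 within their range, and control 1 was the highest library. The mean was 159 ± 32.1 TPM in control livers and 129 ± 5.81 TPM in the knockouts (SD, n = 4 each), 81.4% of the controls, with a log2 fold change of -0.28 ± 0.13 (SE; unadjusted p = 0.0519, adjusted p = 0.630, limma). Without floxed control 1 the log2 fold change was -0.15, and without floxed control 2 it was -0.37.

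*Slco1b2* (ENSMUSG00000030236), the sodium-independent carrier OATP1B2, measured 194.37, 207.40, 135.60 and 134.58 TPM in floxed controls 1 to 4 and 158.65, 193.31, 213.98 and 214.31 TPM in knockouts 1 to 4. The controls formed a high and a low pair, and 2 knockouts lay within their range and 2 just above it. Its log2 fold change was 0.23 ± 0.16 (SE; adjusted p = 0.811, limma), 0.14 without floxed control 3 or 4, and 0.34 without floxed control 2. The ratio of the uptake carrier *Slc10a1* to the export pump *Abcb11* was 1.59, 1.17, 1.10 and 1.47 in floxed controls 1 to 4 and 0.68, 0.80, 0.74 and 0.86 in knockouts 1 to 4. The TPM of NTCP thus exceeded that of BSEP in every control, and the order was the other way in every knockout.

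Of the basolateral exporters, *Slc51b* alone had a p under 0.05 before adjustment. *Slc51b* (ENSMUSG00000053862), the OST beta subunit, measured 3.44, 3.06, 4.37 and 1.73 TPM in floxed controls 1 to 4 and 5.55, 7.17, 6.53 and 3.98 TPM in knockouts 1 to 4. In each group library 4 was the lowest, and knockout 4 lay below control 3, so that the groups overlapped by that pair. Controls averaged 3.15 ± 1.09 TPM and knockouts 5.81 ± 1.39 TPM (SD, n = 4 each), 184% of the controls, with a log2 fold change of 0.73 ± 0.23 (SE; unadjusted p = 0.00876, adjusted p = 0.352, limma). The level is low, and the log2 fold change moved with the pseudocount: it was 0.41 with a pseudocount of 5 and 0.90 with 0.1. Its partner subunit *Slc51a*, without which the carrier is not formed, stood at 0.11 to 0.23 TPM in control livers and was listed at 0 to 0.35 TPM in the knockouts, below the level tested.

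The MRP exporters of the basolateral membrane showed no difference larger than their spread. *Abcc3* (ENSMUSG00000020865), the gene of MRP3, had a mean of 100.2 ± 14.3 TPM in control livers and 100.01 ± 8.80 TPM in the knockouts (SD, n = 4 each), with ranges of 79.40 to 109.64 and 89.86 to 111.32 TPM. Its log2 fold change was 0.0045 ± 0.12 (SE; adjusted p = 0.998, limma), and the sign turned with the scaling. *Abcc4* (ENSMUSG00000032849), the gene of MRP4, was the least abundant member, with 0.88 to 2.23 TPM in control livers and 1.11 to 2.28 TPM in the knockouts, and a log2 fold change of -0.01 ± 0.20 (SE; adjusted p = 0.997, limma).

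**Figure D3:**
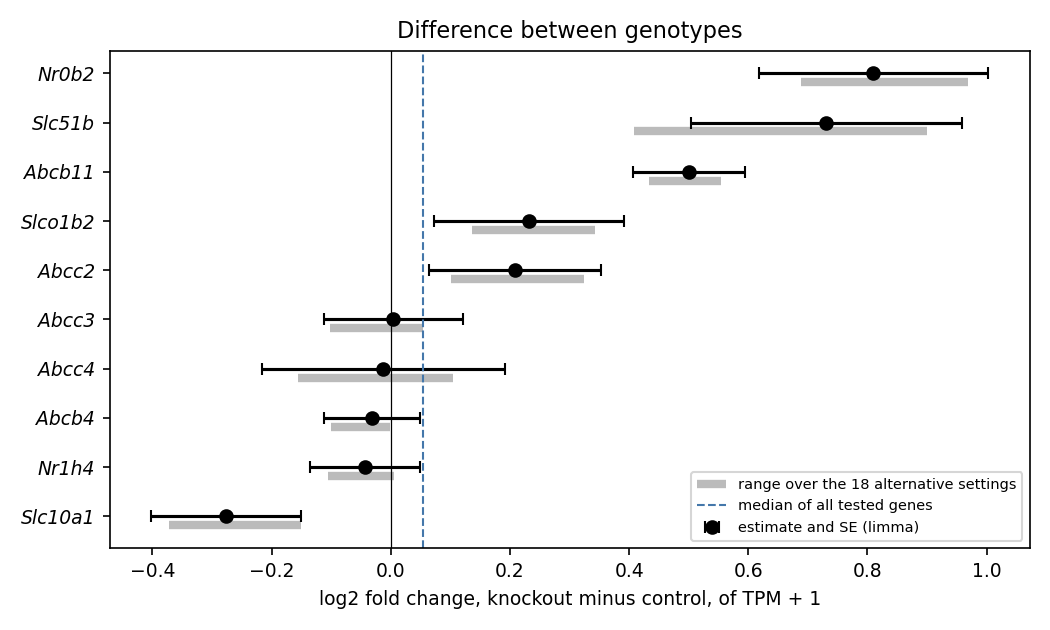
Log2 fold change of TPM + 1, knockout minus control (horizontal axis), of each member with its standard error (black), its range over the 18 alternative settings (grey) and the median of all tested genes (dashed blue line). Nr0b2, Slc51b and Abcb11 stay above 0.4 in each of these settings, and the ranges of Abcc3, Abcc4 and Nr1h4 cross 0.

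In the controls the order by mean was *Slco1b2* (168 TPM), *Slc10a1* (159), *Abcb4* (140), *Abcb11* (119), *Abcc3* (100.2), *Abcc2* (84.4), *Nr1h4* (52.5), *Nr0b2* (40.6), *Slc51b* (3.15) and *Abcc4* (1.58). Neighbours in that order overlapped in range, except *Abcc2* with *Nr1h4* and *Nr0b2* with *Slc51b*. *Slco1b2* stood above *Slc10a1* in only 1 of 4 control libraries. In the knockouts *Abcb11* was second to *Slco1b2* and *Nr0b2* stood above *Nr1h4* in 4 of 4 libraries. There *Abcb11* and *Abcb4* no longer overlapped (157.72 to 179.02 against 128.20 to 148.35 TPM).

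How the members varied together was described by Pearson's r of log2(TPM + 1) over the 8 libraries, without a test. The closest pair was *Abcb11* with *Slc51b* (r = 0.88, Spearman's rho = 0.88), and r was 0.69 after the group means were removed. Within the knockouts the orders differed, with *Abcb11* highest in knockout 1 and *Slc51b* highest in knockout 2. *Nr0b2* and *Abcb11* had r = 0.66 over all libraries and -0.34 after the group means were removed. Among the tested genes, leaving out those with a clone, predicted or identifier name, the 3 most like *Abcb11* were *Serpinc1* (r = 0.97), *Mcu* (0.96) and *Taf13* (0.96). The 3 most like *Nr0b2* were *Olfm3* (0.98), *Cep97* (0.98) and *Foxa2* (0.96), and those most like *Nr1h4* were *Smg1* (0.94), *Camkk2* (0.92) and *Wdr4* (0.92). The named genes were picked as the highest among the 12710 tested genes after that exclusion, and r over the 8 points includes any genotype difference. After the group means were removed, r was 0.75 to 0.81 for the genes like *Abcb11*. It was 0.93 to 0.98 for those like *Nr0b2* and 0.92 to 0.94 for those like *Nr1h4*.

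The other genes of bile acid biology were then counted by list. Of 75 such genes, each counted once, 68 were tested and 1 passed, *Osgin1*, which rose, against 13 of 12710 tested genes (0.102%). The lists were chosen with earlier results of these data known. Of the 68, 5 had an unadjusted p under 0.05 as higher and 4 as lower in limma (5.57% and 2.45% of all tested genes). The groups did not overlap in 4 as higher and 2 as lower (3.29% and 1.46% of all tested genes). The same shares stand beside the counts by list below. For the list medians below, the median of all tested genes ran from -0.01 without floxed control 4 to 0.10 without knockout 1. *Osgin1* (ENSMUSG00000074063), a growth inhibitor gene known as an FXR and oxidative stress target, stood at 163 to 192 TPM in control livers and 300 to 465 TPM in the knockouts (log2 fold change 1.03 ± 0.13 SE, adjusted p = 0.0300, limma). Its call was lost without floxed control 1, 2 or 4 or knockout 2 or 3 (adjusted p up to 0.0978, limma). It was also lost without a filter on low values (adjusted p = 0.167), with the replicate block (0.0803) and after median-of-ratios scaling (0.0566).

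Of the 17 partners and regulators of FXR, 15 were tested and none passed (median log2 fold change 0.07; 1 had an unadjusted p under 0.05 in limma). That median was 0.11 without floxed control 2, and -0.01 to 0.05 without floxed control 1, 3 or 4 or knockout 3 or 4. *Fgfr4*, the receptor through which intestinal FGF15 lowers bile acid synthesis, measured 17.35, 15.05, 14.48 and 15.30 TPM in floxed controls 1 to 4 and 17.87, 22.34, 22.06 and 24.80 TPM in knockouts 1 to 4. The groups did not overlap, with knockout 1 just above control 1 (log2 fold change 0.45 ± 0.12 SE, adjusted p = 0.246, limma). *Foxa2*, a hepatocyte transcription factor, and *Hnf4a*, a nuclear receptor that drives transporter and bile acid synthesis genes, had log2 fold changes of 0.25 and -0.22 (adjusted p = 0.633 and 0.665, limma), and *Hnf4a* -0.13 without knockout 1.

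Of 12 other bile acid and organic anion transporters, 11 were tested and none passed (median 0.12; 1 had an unadjusted p under 0.05 in limma). The median was 0.23 without floxed control 2 and 0.07 without floxed control 4. *Slc10a2*, the sodium-dependent carrier of bile duct and gut epithelium, had means of 8.96 and 11.7 TPM in controls and knockouts (log2 fold change 0.34, adjusted p = 0.616, limma). The anion exporter gene *Abcc6* and the uptake carrier gene *Slc22a7* had log2 fold changes of 0.24 and -0.32 (adjusted p = 0.660 and 0.680, limma). These were 0.15 without floxed control 1 and -0.17 without knockout 2. The groups overlapped in the summed level of 10 bile duct markers, at 260 to 484 TPM in control livers and 193 to 659 TPM in the knockouts, and 9 of 10 had a higher mean in the knockouts. *Krt19* stood at 1.90 to 6.47 and 1.64 to 8.21 TPM. Their part in the values of *Slc10a2* and *Slc51b* was not tested. Of 6 gut epithelium markers, *Sis* and *Alpi* were listed at 0 in every library, *Lct* reached at most 0.02 TPM and *Vil1* lay at 0.19 to 0.95 TPM. The lipid carriers *Fabp2* (90.69 to 117.86 TPM) and *Apoa4* (762.55 to 1287.25 TPM), which mouse liver is also known to express, were high in every library.

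The 15 other canalicular lipid transporters and apical membrane genes were all tested and none passed (median 0.11; 1 had an unadjusted p under 0.05 in limma). The median was 0.03 to 0.07 without floxed control 3 or 4 or knockout 2 or 4. *Abcg8*, a subunit of the exporter that puts cholesterol into bile, stood at 19.08 to 31.71 TPM in control livers and 12.25 to 18.72 TPM in the knockouts, without overlap (log2 fold change -0.45 ± 0.18 SE, adjusted p = 0.550, limma). It was -0.30 without floxed control 2. *Ceacam1*, a canalicular adhesion protein, and *Pdzk1*, an apical scaffold, had log2 fold changes of 0.16 and 0.18 (adjusted p = 0.678 and 0.793, limma), and *Pdzk1* 0.11 without floxed control 4.

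**Figure D4:**
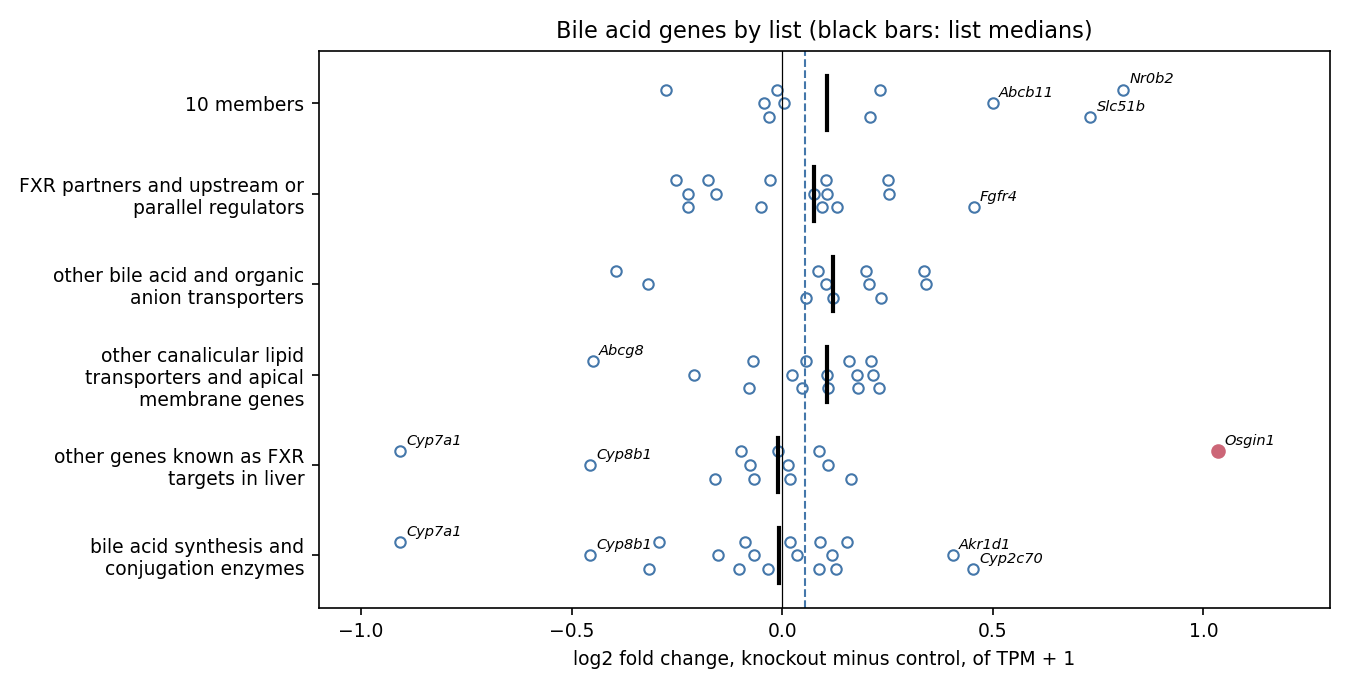
Log2 fold change of TPM + 1, knockout minus control (horizontal axis), of the 10 members and of the tested genes of 5 other bile acid lists (rows), with list medians as black bars, the median of all tested genes as a dashed line, and Osgin1, the 1 gene past the threshold, filled. Genes more than 0.4 from 0 are named, and Cyp7a1 and Cyp8b1 stand in 2 lists.

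Among 16 other genes known as FXR targets, which include genes that FXR activates and genes that it represses through SHP, 13 were tested. *Osgin1* was the 1 that passed. The median of the list was -0.01 and ran from -0.08 to 0.03 when single libraries were left out, above 0 without floxed control 1, 2 or 3 or knockout 2. *Fgf15*, *Fabp6* and *Nr0b1* were listed at 0 in every library. *Cyp7a1* and *Cyp8b1*, which SHP is known to repress, had lower means in the knockouts, and neither passed. *Cyp7a1*, the rate-limiting enzyme of bile acid synthesis, measured 52.69, 39.21, 18.89 and 15.75 TPM in floxed controls 1 to 4 and 14.85, 13.48, 19.11 and 11.58 TPM in knockouts 1 to 4. Controls 1 and 2 were high, while controls 3 and 4 lay among the knockouts, so the difference rested on 2 libraries (log2 fold change -0.91 ± 0.34 SE, adjusted p = 0.491, limma). *Cyp8b1*, the sterol hydroxylase needed for cholic acid, stood at 153.71 to 219.43 TPM in control livers and 113.33 to 155.40 TPM in the knockouts (log2 fold change -0.46 ± 0.13 SE, adjusted p = 0.281, limma), with knockout 4 above control 2. Of the synthesis and conjugation enzymes 18 of 19 were tested and none passed (median -0.01; 2 as higher and 3 as lower at an unadjusted p under 0.05 in limma). Their median ran from -0.07 to 0.03 when single libraries were left out, above 0 without floxed control 1 or 2 or knockout 1 or 2. *Cyp2c70*, which makes the muricholic acids of rodents, averaged 180 ± 9.87 TPM in control and 248 ± 33.9 TPM in knockout livers (SD, n = 4 each) and *Slc27a2*, an acyl-CoA synthetase, 686 ± 37.0 and 560 ± 26.7 TPM, without overlap in either (adjusted p = 0.186 and 0.200, limma).

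**Figure D5:**
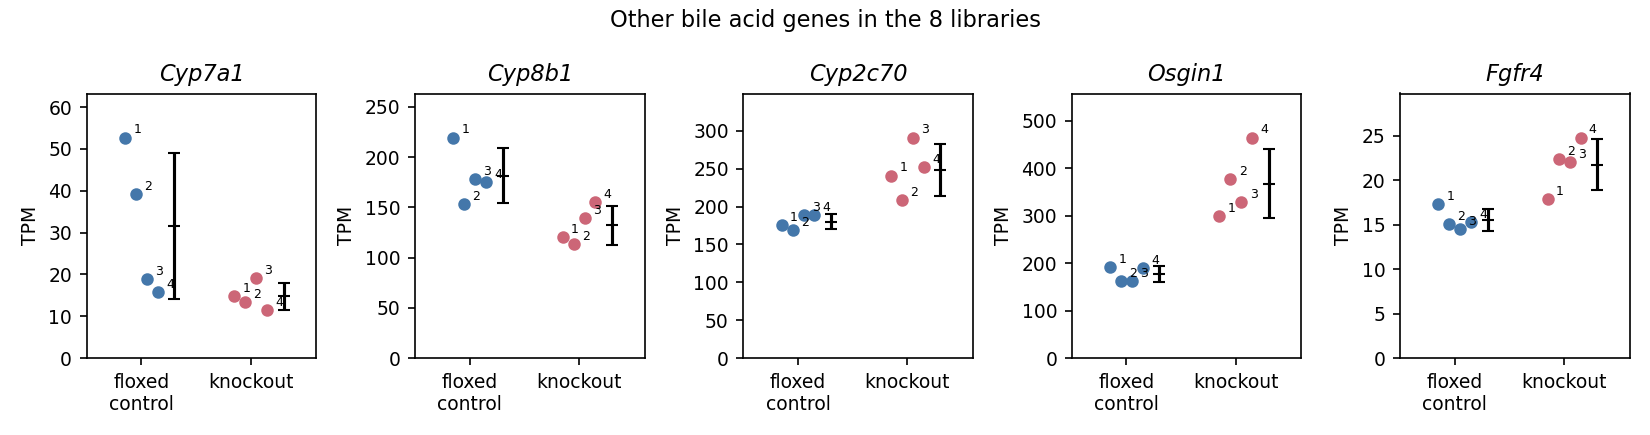
Level in TPM (vertical axis, from 0) of 5 other bile acid genes in the 4 floxed control (blue) and 4 knockout (red) libraries, with mean and SD in black. The Cyp7a1 panel shows controls 3 and 4 (18.89 and 15.75 TPM) among the knockouts (11.58 to 19.11 TPM), while the Cyp2c70, Osgin1 and Fgfr4 groups are apart.

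The clock gene *Arntl* also lay apart between the genotypes, at 3.18 to 6.52 TPM in control livers and 11.95 to 19.55 TPM in the knockouts (log2 fold change 1.41 ± 0.21 SE, adjusted p = 0.0490 and 0.0310 to 0.230 over the alternatives, limma). *Dbp*, another clock gene, was lower in the knockouts, at 5.43 to 35.43 TPM in control livers and 1.68 to 3.27 TPM in the knockouts. Its log2 fold change was -2.44 ± 0.46 SE (adjusted p = 0.108 and 0.00439 to 0.363 over the alternatives, limma). Several bile acid genes are known to follow the daily rhythm. The part of these clock genes in the values above was not tested.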

How the data were processed

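Stranded total RNA libraries were made from 8 liver samples, per the labels' protocols. The authors deposited gene-level TPM values, scaled within each library, in 1 column per library. RSEM 1.3.3 and GRCh38.p13 are named in the submitters' processing notes. That build is human, while the identifiers are of mouse genes. Aligner, annotation and strandedness of counting were not given in the sources used here. Columns summed to 994563 to 995449 TPM. TPM holds no read number, so counting error could not be computed.

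Symbols were matched for 52083 of 55416 identifiers. On log2(TPM + 1), knockouts were compared with controls by limma 3.58.1 in R 4.3.3 (lmFit, then eBayes with trend). Only genes reaching 1 TPM in 4 or more libraries entered, and p-values were adjusted by Benjamini-Hochberg over all 12710 genes, with a threshold of 0.05. The fit procedure was tested on simulated data. The members and lists were chosen with earlier results of these data known. From each bile acid list the up to 3 genes of smallest p are named. *Osgin1* falls under that rule, while *Slc51a*, *Arntl*, *Dbp*, the named cell markers and the genes listed at 0 were named after their values were seen. Of 10 hepatocyte markers 9 were matched. Promoter windows came from RefSeq (GRCm38.p6). Alternatives were other pseudocounts, filters and scalings, robust eBayes, library weights, a replicate block, and leaving out each library.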

Additional observations from a re-analysis of the deposited data

Results flagged for a closer look

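*Nr1h4* in floxed control 2 stood at 50.88 TPM, apart from the other controls, which lay within 52.92 to 53.18 TPM. This library was singled out because its gap to the next value filled most of the group's range, in a group whose values differed very little. Of the 48 groups of 4 libraries checked in this way, chance alone sets apart about 1 in 20.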

How the results depend on the processing

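None of the 10 members passed in any of the 18 alternative settings in which it was tested, where 2 to 5 of them had an unadjusted p under 0.05 in limma and the smallest adjusted p of a member was 0.0658. The number of all tested genes past the threshold, 13, was 8 and 6 with pseudocounts of 0.1 and 5, 0 without a filter, 20 after rescaling without mitochondrially encoded and the 20 most abundant genes, 20 with library weights, and 0 to 16 when single libraries were left out. The 1 other bile acid gene that passed became 0 without a filter and after median-of-ratios scaling, and 0 to 1 when single libraries were left out. *Smpd3* kept a log2 fold change of -1.89 but did not pass without a filter (adjusted p = 0.167, limma). Left-out libraries moved it between -2.06 and -1.76.

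Among the 10 members, signs turned for *Abcc3*, *Abcc4* and *Nr1h4*. *Abcc3* had a log2 fold change of -0.0585 with median-of-ratios scaling, -0.0567 with quantile normalization, -0.0202 after rescaling without the most abundant genes, and -0.1024 to 0.054 when libraries were left out (-0.1024 without floxed control 1, -0.0479 without knockout 2). *Abcc4* ran from -0.16 to 0.10 when libraries were left out (0.0292 and 0.1048 without floxed controls 1 and 2, 0.0711 and 0.0213 without knockouts 1 and 3). *Nr1h4* ran from -0.1035 without knockout 3 to 0.0056 without knockout 1. The mean filter of 5 TPM removed *Abcc4* and *Slc51b*.

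With the replicate block in limma, 0 of all tested genes, 0 members (3 at an unadjusted p under 0.05) and 0 other bile acid genes passed, and *Smpd3* stayed at -1.89 (adjusted p = 0.0818, limma). Same-numbered libraries did not deviate together (correlations of -0.20 to 0.03 over genes), and 0 of 8 libraries correlated best with its own number. These values show no sign of pairing by number, but they cannot exclude a weak one. The cause of these changes was not tested. Without counts, how far depth limits low genes such as *Abcc4* and *Slc51b* is not known.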
